A study of Mus musculus with 6 samples.

Results

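The 8 genes described here build the hair bundle of the inner ear or power its cells, and were followed across cochleae with and without Igf1, the gene of insulin-like growth factor 1. They are the unconventional myosin genes Myo7a, Myo6 and Myo15, the scaffold gene Ush1c (harmonin), the actin bundling gene Espn (espin), the tip link cadherin genes Cdh23 and Pcdh15, and Slc26a5 (prestin). They were chosen by name, and all 8 were found, at 11 single-gene probe sets of the 22626 tested. Myo6 had 3 probe sets, Cdh23 had 2, and each other gene had 1. No probe set shared between genes named a member.

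Hair cells are the sensory cells of the organ of Corti. Each carries a bundle of actin-filled stereocilia joined by tip links, and a pull on these links opens the transduction channels. Myosins VIIa and XVa carry cargo within stereocilia, and myosin VI anchors their base. Cadherin 23 and protocadherin 15 form the tip link and harmonin ties it to actin, while prestin is the membrane motor that changes the length of outer hair cells. Loss of any of these proteins impairs hearing in mice.

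The samples were pools of RNA from mouse embryos of embryonic day 18.5, bred from heterozygous parents on a C57BL/6J background. There were 3 pools of Igf1 +/+ embryos (wild type) and 3 pools of Igf1 -/- embryos (null), each made from 4 cochleae with the otic capsule but without vestibular tissue, and each hybridised to 1 single-colour Affymetrix array. The labels name neither a tissue-specific driver nor the disrupted part of the gene. Levels below are log2 signals after quantile normalization, and every difference is null minus wild type, so that 1 unit is a 2-fold ratio. Values of single pools are given in the order of replicates 1, 2 and 3.

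Igf1 itself read lower on each null array than on each wild type array at all 3 of its probe sets. At the probe set with the largest difference, Igf1 read 7.93, 8.09 and 8.14 in the wild type pools and 7.14, 6.92 and 7.13 in the null pools. The Igf1 differences were -0.99 ± 0.12 (SE) there, and -0.46 ± 0.12 and -0.55 ± 0.15 at the other probe sets, and none passed in limma (adjusted p = 0.600, 0.887 and 0.889). The brightest Igf1 probe set still read 10.59 ± 0.13 (SD, n = 3) over null pools, against 11.05 ± 0.08 (SD, n = 3) over wild type pools. All 3 Igf1 probe sets were above background in both groups. A source field of the null samples carries the wild type sign, against their titles and descriptions, from which the groups were taken. Deposited array medians ran from 5.61 to 6.36 before normalization. Genes of cochlear tissue were well represented: 10 of 11 stood above background in both groups, among them Otor at 12.00 ± 0.19 (SD, n = 3) over wild type pools and 12.02 ± 0.20 (SD, n = 3) over null pools, and the tectorial membrane gene Tecta at 9.12 ± 0.41 (SD, n = 3) and 9.39 ± 0.32 (SD, n = 3). Of 8 hair cell markers, 4 stood above background in both groups (Myo7a, Myo6, Otof and the hair cell determination factor Atoh1). In whole-tissue RNA, fewer cells of a type and less RNA per cell cannot be told apart, and hair cells are a small share of a cochlea with its capsule.

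The upstream sequences of 3 members with signal on most arrays are shown: Myo6, one of the genes whose genotypes overlapped, and Myo15 and Ush1c, whose null arrays all lay above the wild type arrays. Each is the 250 bases before a RefSeq transcript start in GRCm38.p6, 5′ to 3′ on the gene's strand, with the letters CANNTG in capitals. This is the E-box, the motif class bound by Atoh1 and other basic helix-loop-helix factors, and it reads the same on both strands.
Myo6, chr9:80164784-80165033, plus strand: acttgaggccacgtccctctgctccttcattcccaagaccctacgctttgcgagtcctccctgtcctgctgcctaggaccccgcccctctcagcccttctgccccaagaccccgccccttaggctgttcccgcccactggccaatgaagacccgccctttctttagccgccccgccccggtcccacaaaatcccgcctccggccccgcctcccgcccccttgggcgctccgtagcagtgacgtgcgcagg
Myo15, chr11:60469089-60469338, plus strand: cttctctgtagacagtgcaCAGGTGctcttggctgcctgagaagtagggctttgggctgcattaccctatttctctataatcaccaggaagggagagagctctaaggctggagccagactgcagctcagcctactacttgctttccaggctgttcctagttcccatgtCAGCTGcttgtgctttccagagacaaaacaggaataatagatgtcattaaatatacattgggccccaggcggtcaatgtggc
Ush1c, chr7:46238491-46238740, minus strand: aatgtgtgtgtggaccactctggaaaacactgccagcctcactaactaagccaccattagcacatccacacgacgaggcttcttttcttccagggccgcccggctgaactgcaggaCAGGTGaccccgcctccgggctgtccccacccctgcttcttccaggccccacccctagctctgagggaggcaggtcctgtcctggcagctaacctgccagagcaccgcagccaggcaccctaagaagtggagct
The Myo6 stretch held no CANNTG and 18 CG dinucleotides, more than 78.3% of the 32851 promoter windows in the table. That of Myo15 held 2 matches and 1 CG dinucleotide, more than 7.9% of windows, and that of Ush1c held 1 match and 7 CG dinucleotides. The members not shown hold the opposite cases: of genes whose genotypes overlapped, Pcdh15 held 2 matches, Cdh23 held 1, and Myo7a held 2 in one window and 0 in the other. Slc26a5, whose genotypes did not overlap, held 0 matches and 13 CG dinucleotides, and the windows of Espn, which did not overlap either, held 3, 0 and 1 matches. Matches thus occurred among members of either kind. All 8 genes had an entry, with 11 windows in all since Espn has 3 and Myo7a 2. CANNTG was found in 7 of these 11 windows, against 66.2% of all windows, and the median was 6 CG dinucleotides in the members and 6 overall. A match is a description of letters and not a binding site, and no test was made of these shares.

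Whether a probe set reports its gene at all was decided first. No detection calls come with the table, so background was read from 105 probe sets of 71 genes restricted to organs outside the ear, such as testis, milk gland, pancreas, retina and liver. A probe set was counted as above background in a group when each of the 3 arrays exceeded the 95th percentile of these probe sets on that array. This limit was 3.61, 4.15 and 3.78 in the wild type pools and 4.21, 3.78 and 4.19 in the null pools. By this measure 65.3% of all probe sets were above background in both groups.

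Among the members, 4 of 11 probe sets were above background in both groups, and they stand for 3 genes: Myo7a, Myo6 (2 of its 3 probe sets) and Myo15. The third Myo6 probe set was above background on all wild type arrays and 2 of 3 null arrays. Ush1c was above it on 2 of 3 wild type arrays and on all null arrays. The other 5 probe sets, those of Espn, Cdh23, Pcdh15 and Slc26a5, were above background on no array. Hence 4 of the 8 genes, including both tip link cadherins and the motor protein prestin, gave no measurable signal in either genotype, which does not show that they are not expressed.

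**Figure D1:**
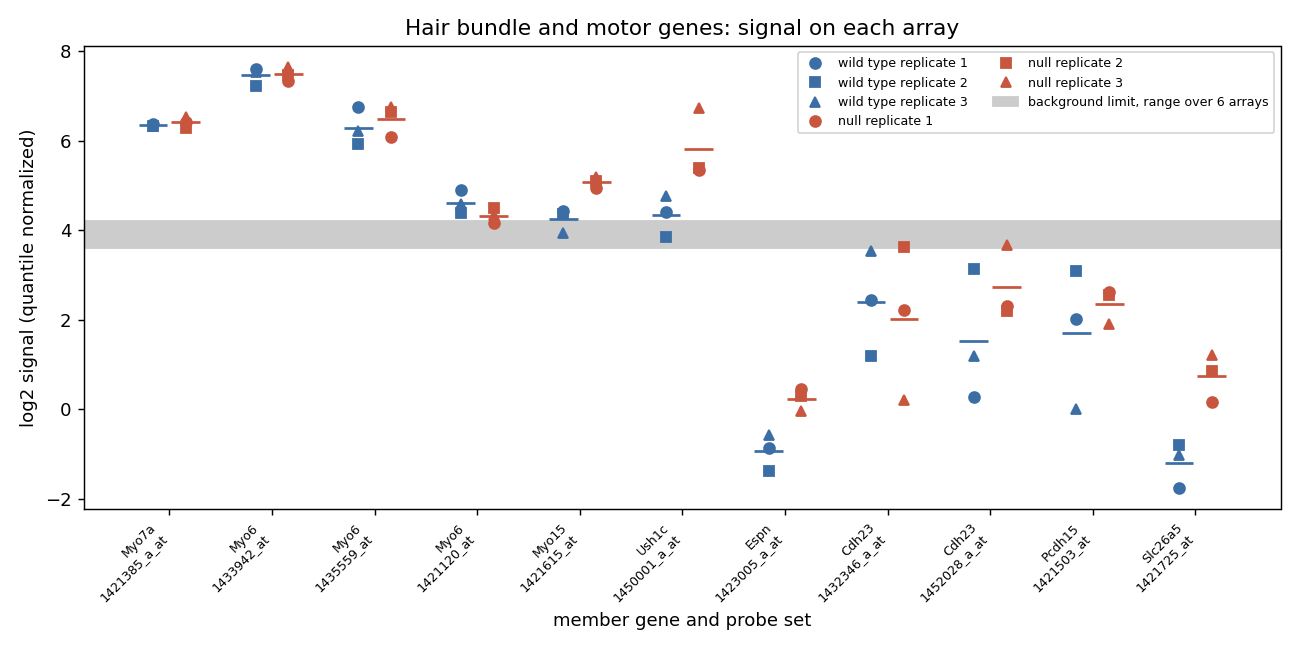
Log2 signal (y axis) of each member probe set (x axis) on 3 wild type arrays (blue) and 3 null arrays (red), with group means as short lines and the range of the background limit over the 6 arrays in grey. Myo7a and 2 probe sets of Myo6 lie above the grey band on every array, Myo15 and Ush1c lie near it in wild type, and the probe sets of Espn, Cdh23, Pcdh15 and Slc26a5 lie below the limit of their array.

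The hair cell myosins with the clearest signal, Myo7a and Myo6, overlapped between the genotypes. Myo7a, whose loss causes the shaker-1 phenotype, read 6.38, 6.33 and 6.32 in the wild type pools and 6.42, 6.27 and 6.53 in the null pools. The arrays of the genotypes overlapped, and the wild type pools were tightly grouped. The Myo7a means were 6.34 ± 0.03 (SD, n = 3) and 6.41 ± 0.13 (SD, n = 3). Their difference was 0.06 ± 0.11 (SE), with a 95% interval from -0.22 to 0.35 (limma adjusted p = 0.990), and on the deposited values it was -0.10. In ratio terms the interval for Myo7a runs from 0.856 to 1.28 times the wild type signal, so a change of 2-fold in either direction lies outside it.

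Myo6, the only minus-end-directed myosin and the gene of Snell's waltzer mice, was read by 3 probe sets. At 1433942_at it read 7.60, 7.22 and 7.54 in the wild type pools and 7.34, 7.47 and 7.65 in the null pools. At 1435559_at Myo6 read 6.74, 5.92 and 6.21 in the wild type pools and 6.08, 6.64 and 6.75 in the null pools. At both, wild type replicate 2 was the lowest array, null replicate 3 was the highest, and the genotypes overlapped. The Myo6 differences were 0.03 ± 0.16 (SE), with a 95% interval from -0.37 to 0.43 (-0.12 on the deposited values), and 0.20 ± 0.29 (SE), with an interval from -0.54 to 0.93 (limma adjusted p = 0.998 and 0.987). The difference of Myo6 at 1435559_at was 0.01 without wild type replicate 2, 0.43 without wild type replicate 1 and 0.63 without both arrays of title number 14 (replicate 1 of each genotype; the titles of the others carry 16, and what this number marks is not stated).

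The third Myo6 probe set, 1421120_at, read close to the background limit, at 4.89, 4.37 and 4.59 in the wild type pools and 4.15, 4.49 and 4.34 in the null pools. Null replicate 1 fell under its array's limit. The difference at this Myo6 probe set was -0.29 ± 0.18 (SE), of opposite sign to the other Myo6 probe sets (limma adjusted p = 0.980), and the mean over the 3 Myo6 probe sets differed by -0.02 ± 0.20 (SE). The probe sets of Myo6 therefore disagree in sign, each by less than its 95% interval.

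Myo15, the myosin that delivers whirlin and Eps8 to stereocilia tips and is mutated in shaker-2 mice, had higher values in the null pools. It read 4.43, 4.37 and 3.94 in the wild type pools and 4.95, 5.10 and 5.18 in the null pools. Each null array lay above each wild type array, and wild type replicate 3 stood only slightly above its background limit of 3.78. The Myo15 means were 4.25 ± 0.27 (SD, n = 3) and 5.08 ± 0.12 (SD, n = 3), a difference of 0.83 ± 0.17 (SE) with a 95% interval from 0.39 to 1.26 and a ratio of 1.77. In limma the unadjusted p was 0.00417 for Myo15, and it did not pass adjusted over all probe sets (adjusted p = 0.886). With 32 added to the back-transformed signals before taking log2, the Myo15 difference was 0.36. With the 99th percentile of the reference genes as the limit, Myo15 was above background in the null pools only.

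Ush1c, the gene of the scaffold protein harmonin, had the largest difference among the members with signal on most arrays. It read 4.41, 3.84 and 4.77 in the wild type pools and 5.34, 5.40 and 6.72 in the null pools. The genotypes did not overlap, null replicate 3 stood far above the other arrays, and wild type replicate 2 lay under its limit of 4.15. The Ush1c means were 4.34 ± 0.47 (SD, n = 3) and 5.82 ± 0.78 (SD, n = 3), a difference of 1.48 ± 0.47 (SE) with a 95% interval from 0.31 to 2.66. In limma the unadjusted p was 0.0224 for Ush1c and the adjusted p was 0.922. Without null replicate 3 the Ush1c difference was 1.02, and with 32 added it was 0.78. Since 1 wild type array was at background, the size of the difference is less certain than its error states.

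**Figure D2:**
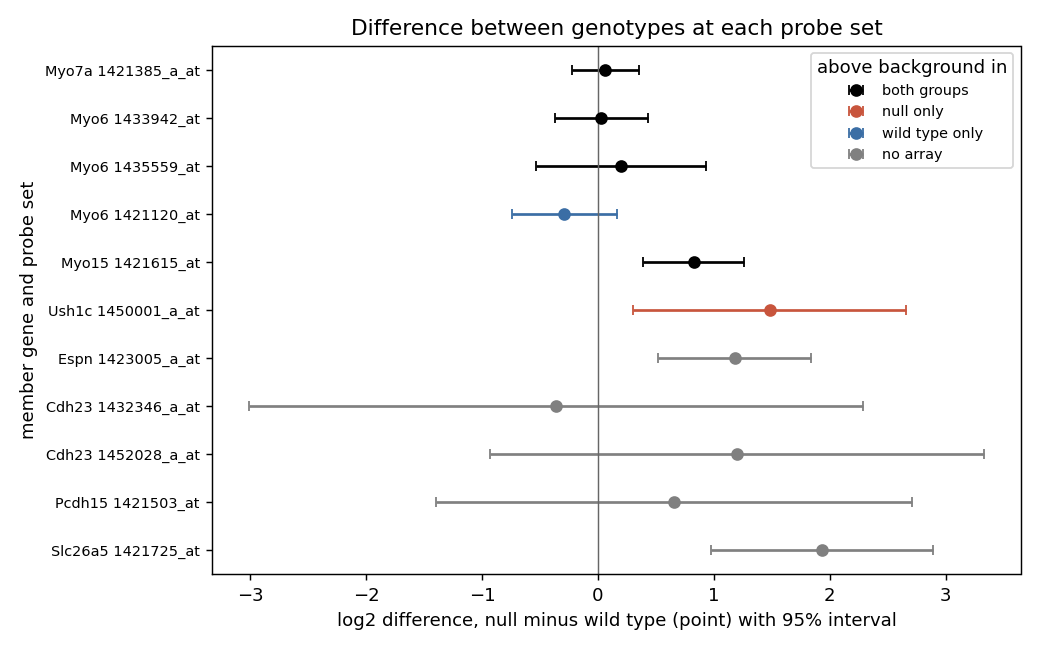
Log2 difference, null minus wild type (x axis), at each member probe set (y axis), with 95% intervals from limma; colours give the groups in which the probe set was above background. The intervals of Myo7a and Myo6 include 0, that of Myo15 runs from 0.39 to 1.26, and the grey points of Slc26a5 and Espn are differences between values at background.

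For Slc26a5 and Espn the genotypes did not overlap, yet no array stood above background. Slc26a5, the prestin gene, read -1.76, -0.80 and -1.03 in the wild type pools and 0.15, 0.86 and 1.21 in the null pools. Espn, whose protein bundles stereocilia actin and is mutated in jerker mice, read -0.86, -1.39 and -0.58 in the wild type pools and 0.46, 0.30 and -0.05 in the null pools. Every value lies far under the limit, and the mean over the 6 arrays exceeded that of 41.9% of the reference probe sets for Slc26a5 and 39.0% for Espn. The differences were 1.93 ± 0.38 (SE) for Slc26a5 and 1.18 ± 0.26 (SE) for Espn (limma unadjusted p = 0.00313 and 0.00554, adjusted p = 0.856 and 0.887). With 32 added they were 0.06 for Slc26a5 and 0.03 for Espn. Probe sets of this kind reach small p-values more often than others: of 4796 probe sets above background on no array, 8.99% had an unadjusted p under 0.05, against 2.98% of the 14779 above background in both groups. Among the reference probe sets, whose genes belong to other organs, it was 12 of 105 (11.4%).

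The tip link genes varied widely at background. The first Cdh23 probe set, 1432346_a_at, ran from 1.18 to 3.54 in wild type and from 0.21 to 3.63 in null arrays, and the other, 1452028_a_at, from 0.27 to 3.12 and from 2.19 to 3.68. The Cdh23 differences were -0.36 ± 1.05 (SE) and 1.20 ± 0.84 (SE), opposite in sign. Pcdh15 ran from -1.9e-04 to 3.09 in wild type and from 1.91 to 2.61 in null arrays, with a difference of 0.66 ± 0.81 (SE). The 95% intervals of these 3 probe sets each span more than 4 log2 units and include 0.

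Taking the 11 member probe sets as a whole, 9 had a higher and 2 a lower mean in the null pools, and 0 passed an adjusted p of 0.05 in limma, as did 0% of all probe sets. At an unadjusted p under 0.05 there were 4 (Myo15, Ush1c, Slc26a5 and Espn), all higher in null, where 2.42% of all probe sets were called higher and 4.99% in either direction. The same 4 were the members whose genotypes did not overlap, against 5.53% of all probe sets with every null array higher, 5.95% of those above background in both groups and 5.09% of those above it on no array. Only 1 of these 4, Myo15, was above background in both groups. The median difference was 0.66 over the 11 probe sets, 5 of which are at background, and 0.13 over the 4 above background in both groups, or -0.03 on the deposited values. Without both arrays of title number 14 the latter was 0.40. Over all probe sets above background in both groups the median was 0.0055. Over all probe sets the median was 0.0041 after quantile normalization and -0.15 on the deposited values. A list of 4 probe sets of 3 genes, with 2 of the 4 from Myo6, is small for a median.

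The non-overlap of Myo15 and Ush1c was shared with 2 genes listed as markers of the vestibular organ, and with genes of other lists. The vestibular organ was left out of the dissection, and its hair cells use the same bundle proteins. Of 5 vestibular markers listed, 3 were measured and 2 stood above background in both groups. Oc90, the otoconial matrix protein gene, read 10.46, 9.96 and 10.26 in the wild type pools and 10.88, 10.72 and 11.67 in the null pools. Hmx3, a homeobox gene of vestibular development, read 4.48, 4.34 and 4.07 in the wild type pools and 4.85, 4.76 and 5.26 in the null pools. Each null array exceeded each wild type array for both genes, and null replicate 3 was the highest array for both, as for Myo15 and Ush1c. The same held for Otog, of the supporting cell genes described below. Otog read 7.06, 6.58 and 7.05 in the wild type pools and 7.29, 7.27 and 8.16 in the null pools. Diaph1, of the bundle actin genes, did not overlap either. Every null array was higher at 5.95% of all probe sets above background in both groups. The differences were 0.86 ± 0.30 (SE) for Oc90 and 0.66 ± 0.19 (SE) for Hmx3 (limma adjusted p = 0.971 and 0.895). Those of Otog and Diaph1 were 0.67 ± 0.30 (SE) and 0.18 ± 0.11 (SE) (limma adjusted p = 0.980 for both). The third vestibular marker, Hmx2, was above background on no array. Hmx3 stood only slightly above its limit in wild type replicates 2 and 3. The mean of Oc90 over the wild type pools was 10.23, against 9.12 for Tecta, although vestibular tissue was left out. Levels of different probe sets are not directly comparable, and the source of the Oc90 signal was not tested. The log2 of the summed signal of the 3 measured genes ran from 9.99 to 10.48 in wild type and from 10.75 to 11.69 in null arrays. This sum is almost all Oc90 and adds little to the Oc90 values above. The part of vestibular RNA in the Myo15 and Ush1c differences was not tested.

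**Figure D3:**
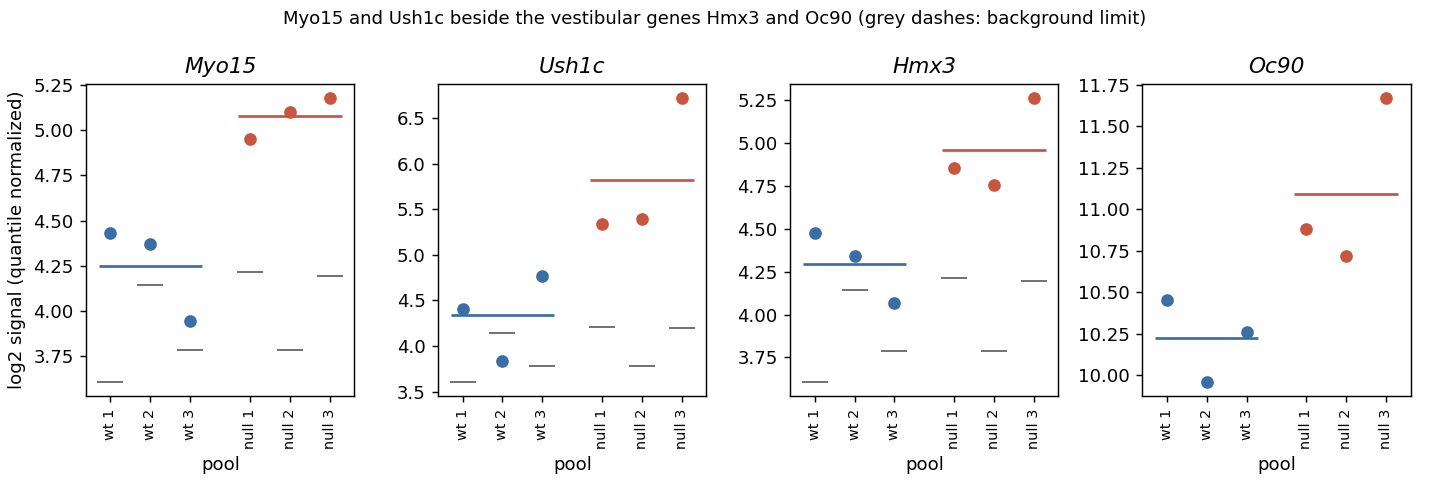
Log2 signal (y axis, a separate scale in each panel) of Myo15, Ush1c, Hmx3 and Oc90 in each wild type (blue) and null (red) pool, with group means as lines and the background limit of each array as grey dashes (off the scale for Oc90). In all 4 genes each null pool lies above each wild type pool and null replicate 3 is the highest.

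Other measures also moved with genotype or with single arrays. For the beta-actin control probe sets, the 3′ minus 5′ difference in log2 signal ran from 0.71 to 0.80 in wild type and from 0.86 to 1.08 in null arrays, highest in null replicate 3. The same difference for the GapdhMur controls overlapped between genotypes, from 0.19 to 0.32 in wild type and from 0.18 to 0.52 in null arrays, again highest in null replicate 3. Y-linked genes had mean signals from 2.70 to 3.53 in wild type replicate 2 and null replicates 2 and 3, and from -0.23 to 0.66 in the other arrays. The summed signal of 8 neuronal genes was highest in wild type replicate 2 (13.44 on the log2 scale, against 11.61 to 12.66 in the others); there the neurofilament gene Nefl read 11.39, against 9.54 to 10.74 elsewhere. Their part in the member differences was not tested.

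When the other genes above background were compared by their shape over the 6 arrays, those most like Myo7a and Myo6 came from outside the hair cell lists. The measure was the root mean square difference of log2 values centred on each gene's mean, among 8700 genes. The nearest to Myo7a were Sass6 (0.028), Vps26a (0.031) and Denr (0.033), and the nearest to Myo6 at 1433942_at were Pigo (0.024), Trps1 (0.032) and Ddx20 (0.037). The nearest to Myo15 was Hmx3 (0.16), followed by Trib1 (0.16) and Pctp (0.17). These distances describe 6 arrays and carry no test.

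Genes whose products work with the members in the bundle fell into those with clear signal and those at background, and none differed past the threshold. Of 17 genes of bundle links, transduction and scaffold, 5 were measured and only Tprn, the taperin gene of the stereocilia base, stood above background in both groups, at 5.06 ± 0.12 (SD, n = 3) over wild type pools and 4.98 ± 0.16 (SD, n = 3) over null pools. The channel genes Tmc1 and Tmc2 and the stereocilin gene Strc were above background on no array. The ankle link gene Adgrv1 was above it on 2 of 3 wild type arrays and on all null arrays. Of 20 genes of bundle actin, myosins and membrane linkers 16 were measured and 15 were above background in both groups, 5 of them higher and 10 lower, and the median difference was -0.07, or 0.04 with median centring. They include Actg1, gamma-actin (12.91 ± 0.06 and 12.79 ± 0.08, SD, n = 3), Fscn1, fascin (10.99 ± 0.13 and 10.94 ± 0.14), Capzb, an actin capping subunit (10.04 ± 0.05 and 9.97 ± 0.09), and Rdx, radixin, which ties actin to the stereocilia membrane (9.51 ± 0.04 and 9.50 ± 0.24). These signals come from whole-tissue RNA, so the part of hair cells in them is not known. No gene of either list passed in limma, nor did any reach an unadjusted p under 0.05 at its brightest probe set. Of all 33 probe sets of the bundle actin, myosin and linker genes, 2 reached such a p in limma, where 4.99% of all probe sets did.

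The regulators and synaptic genes of hair cells gave a similar picture. Atoh1, the factor that specifies hair cells, read 5.14 ± 0.06 (SD, n = 3) over wild type pools and 5.02 ± 0.14 (SD, n = 3) over null pools, and Isl1, which hair cells share with neurons, 8.49 ± 0.63 (SD, n = 3) and 8.85 ± 0.14 (SD, n = 3). Pou4f3, required for hair cell survival, was above background on all null arrays but not in wild type replicate 1, where it read 1.76, and its means were 3.72 ± 1.72 (SD, n = 3) and 4.98 ± 0.30 (SD, n = 3). Of 8 such factors measured, 2 were above background in both groups. Of 12 measured genes of hair cell synapse, channels and calcium handling, 8 were above it, 6 of them higher and 2 lower, and the median difference was 0.18, or -0.01 on the deposited values. Dropping wild type replicate 1 gave 0.01 for this median, and dropping replicate 2 of that genotype gave 0.29. Among them Otof, the otoferlin gene of hair cell exocytosis, read 5.52 ± 0.47 (SD, n = 3) and 5.68 ± 0.18 (SD, n = 3), and Calb1, calbindin, 7.28 ± 0.23 (SD, n = 3) and 7.58 ± 0.17 (SD, n = 3). Rab3a, Atp2b2 and Kcnma1 of the same list were highest in wild type replicate 2 (8.19, 7.28 and 5.57), as was the neuronal gene Nefl. The other genes of that list above background were not. The part of neurons in the median of that list was not tested. No gene of these lists passed in limma, and 0 had an unadjusted p under 0.05 at their brightest probe set. Of all 11 probe sets of the transcription factors, 1 had such a p in limma, where 4.99% of all probe sets did.

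Neighbouring cell types were read by their own markers. Of 17 genes of supporting cells and organ of Corti epithelium, 15 were above background in both groups, 11 of them higher and 4 lower in the null pools; the median difference was 0.14, or -0.09 on the deposited values, and ran from 0.05 (without null replicate 3) to 0.31 (without null replicate 2). Sox2, the factor of the prosensory domain and supporting cells, read 7.76 ± 0.15 (SD, n = 3) over wild type pools and 7.99 ± 0.19 (SD, n = 3) over null pools, and Gjb2, connexin 26, 8.83 ± 0.20 (SD, n = 3) and 8.56 ± 0.20 (SD, n = 3). All 8 cartilage genes of the otic capsule read lower in null (median difference -0.24, from -0.39 without null replicate 3 to -0.12 without null replicate 1), and Col2a1 was at 13.32 ± 0.15 (SD, n = 3) and 13.13 ± 0.18 (SD, n = 3). Of 7 neuronal genes above background, 3 read higher and 4 lower (median difference -0.07, or 0.0058 with median centring, 0.51 when wild type replicate 2 was dropped, 0.23 when null replicate 3 was, -0.38 when wild type replicate 1 was, and -0.47 without title number 14), and of 5 Schwann cell genes 3 read higher and 2 lower (median difference 0.12, or -0.04 on the deposited values, -0.04 without wild type replicate 1 and -0.03 without wild type replicate 3). For comparison, 4552 of 8703 genes above background in both groups read higher (median difference 0.0089). None of these genes passed in limma.

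**Figure D4:**
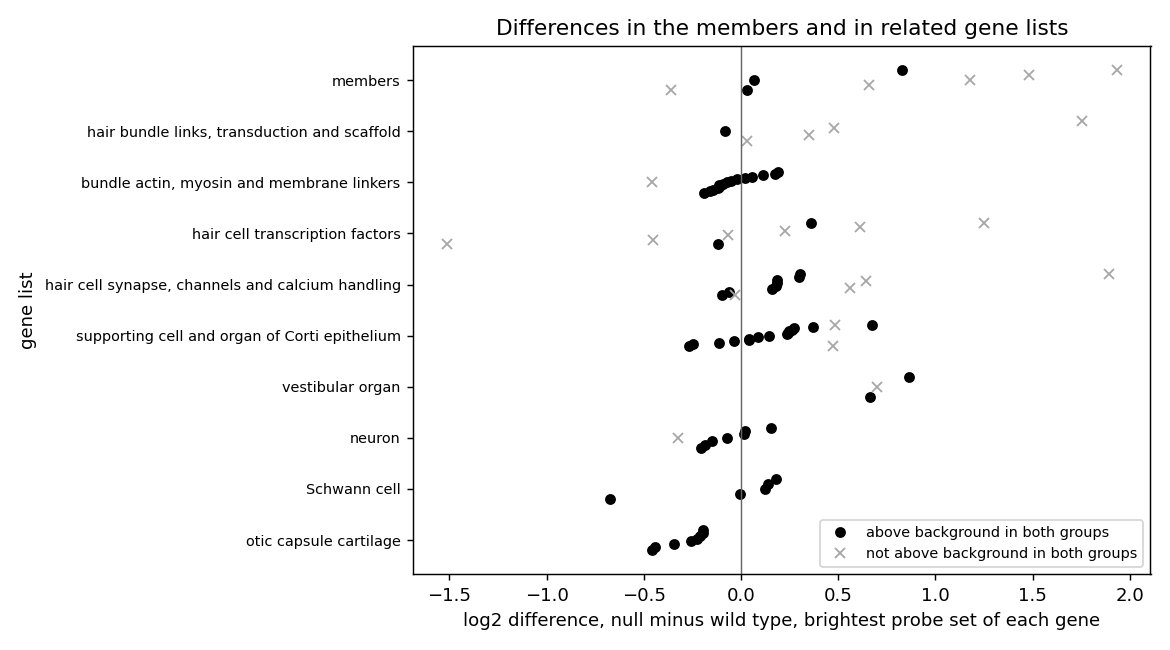
Log2 difference, null minus wild type (x axis), of the brightest probe set of each gene in the members and in 9 related lists (y axis); black circles are above background in both groups and grey crosses are not. The grey crosses are spread wider than the black circles, and of the members Myo7a, Myo6 and Myo15 are black.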

How the data were processed

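The authors deposited log2 signals of 22690 probe sets on 6 single-colour arrays; the log base was taken from their range, while the summarisation and any background correction are not stated in the labels or headers used. The members and gene lists were chosen with earlier results of these data known. After 64 control probe sets were left out, arrays were quantile normalized, because their deposited medians differed. A two-sided limma fit (version 3.58.1, R 4.3.3) with genotype as its only term compared the groups over 22626 probe sets, and p-values were adjusted by Benjamini-Hochberg over them at a threshold of 0.05. The procedure was tested on simulated data.

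Genes were named from a platform annotation: 20380 probe sets had 1 gene, 691 several and 1555 none. Symbols were checked by Entrez identifier against RefSeq (GRCm38.p6), where 29 had no match and none changed. A gene of a list was read at its brightest probe set. Named were all member probe sets, Igf1, the listed cell type markers and up to 4 genes of each list by mean level. Array number limits precision, and pools are the replicates. Alternatives comprised the deposited values, median centring, blocks, a trended robust variance, a filter at the 40th percentile, a pseudocount of 32, other background limits and leaving out arrays.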

Additional observations from a re-analysis of the deposited data

How the results depend on the processing

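No member probe set and no probe set at all passed the adjusted threshold under any of the 14 alternative fits. The count at an unadjusted p under 0.05 over all probe sets, 1130, was 673 with the filter at the 40th percentile, where fewer were tested. Correlations of deviations between pools of the same replicate number were small, at 0.04, 0.10 and 0.02. Those between pools of different numbers ran from -0.07 to 0.03. Deviations were taken from the mean of each group, so both sets of correlations depend on each other. They cannot decide on pairing, and a weak pairing is not excluded. The replicate block gave 0 calls and 1327 probe sets at an unadjusted p under 0.05, and a median member difference of 0.13. Differences of Myo15, Ush1c, Slc26a5 and Espn kept their sign in the 13 alternative fits that held them, since the filter at the 40th percentile removed them. Their genotypes did not overlap, so leaving out arrays could hardly reverse the sign. That of Myo7a was -0.10 on the deposited values, and that of Myo6 at 1433942_at was -0.12 there, -0.021 for the mean of its probe sets, and between -0.088 and 0.10 when 1 array was dropped (lowest when wild type replicate 2 was dropped, and -0.05 without null replicate 3). At background, Cdh23 at 1432346_a_at ran from -1.17 to 0.55 when 1 array was dropped and was 0.42 for the mean of its probe sets, and Pcdh15 ran from -0.19 (without wild type replicate 3) to 1.34. The median over the 4 member probe sets above background was 0.40 without title number 14, and -0.03 on the deposited values, and lay between 0.03 and 0.27 when 1 array was dropped; the cause was not tested. The number of member probe sets above background was 6 with the 90th percentile of the reference, 3 with the 99th and 3 with the 40th percentile of each array. It was 5 with a limit of 3.87, the highest Y-linked value on the 3 arrays lowest in Y-linked signal. Signal at or close to background limits what can be said of 8 of the 11 member probe sets, those other than Myo7a and Myo6 at 1433942_at and 1435559_at.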
